A study of Danio rerio with 16 samples.

Results

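Nodal signalling sets the left-right axis of the vertebrate embryo. Here 7 of its genes were followed among the 36109 genes counted in zebrafish embryos. They were taken by name: the Nodal ligands ndr1, ndr2 and spaw, the co-receptor tdgf1, and the antagonists lft1, lft2 and dand5. The mutants carried a CRISPR/Cas9 knockout of lipf (gastric lipase) and pla2g15 (a phospholipase of lysosomes), and the controls were their wild-type (WT) siblings. Both were sampled at 24 and 48 hours post fertilisation (hpf). The 16 libraries formed 4 groups of 4, called sib24 and mut24 at 24 hpf and sib48 and mut48 at 48 hpf. The labels name no allele, and the sources used here do not give whether the mutants were a stable line or the number of embryos per library. The labels call the tissue body, while the design text speaks of whole embryos. No label ties libraries to clutches, and the p-values therefore cover only the spread among these libraries, which could be technical. By its title the series is about yolk lipid mobilisation and growth, and the question followed here is whether Nodal and left-right genes differed between genotypes and ages.

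Nodal ligands are secreted proteins of the TGF-beta family that signal through Activin receptors only where a co-receptor of the EGF-CFC family is present. The signal passes through Smad proteins and Foxh1, and switches on the genes of the ligands themselves and of the Lefty proteins, which block the ligands, so that the pathway drives its own antagonists. In zebrafish the pathway first induces mesoderm and endoderm in the early embryo. Later it runs on the left side only, in the lateral plate mesoderm, the heart field and the dorsal diencephalon, as gut, heart and pineal complex become asymmetric. RNA of whole embryos or bodies does not tell left from right. Fewer cells of a type and less RNA per cell cannot be told apart in such RNA.

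Libraries held 35.9 to 50.5 counts in units of 1e6. Levels are counts per 1e6 counts of a library (CPM) after scaling by the TMM method, and levels were not compared between genes because no transcript lengths were at hand. A gene was called when its Benjamini-Hochberg adjusted p in edgeR's quasi-likelihood test, over the 24300 genes that passed a filter on low counts, was under 0.05. The filter kept ndr2, spaw, tdgf1, lft1 and lft2 and removed ndr1 and dand5, which held 30 and 99 reads over all 16 libraries. Of the targeted genes, lipf was 9.32-fold lower in mutants at 24 hpf and 9.45-fold lower at 48 hpf without overlap of the groups. In contrast, pla2g15 was not called at either age (edgeR adjusted p = 0.71 and 0.468), and the labels do not say which part of the gene was altered. Summed CPM of 15 yolk syncytial layer genes was 219.9 to 2692 in the sib24 libraries and 199.8 to 2998 in those of mut24. The 4 libraries with the lowest sums, sib24 replicates 1 and 4 and mut24 replicates 2 and 4, are called yolk-poor below, and results were also computed without them.

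At 24 hpf none of the 5 tested genes was called between mutants and WT siblings, while lft1 and tdgf1 stood higher in every mutant library than in every WT library. lft1 was 1.77-fold and tdgf1 1.31-fold higher in the mean, while lft2 went 1.13-fold the other way with overlapping groups. Of all tested genes 0.831% were called in this comparison, and 4.17% had non-overlapping groups with mutants higher. At an unadjusted p under 0.05 edgeR listed 1 of the 5, tdgf1, and DESeq2 called 0. The median log2 fold change was 0.72 over the 5 genes and -0.00 over all tested genes. The former is the value of ndr2 alone, which had 0 to 28 reads in a library at 24 hpf.

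**Figure D1:**
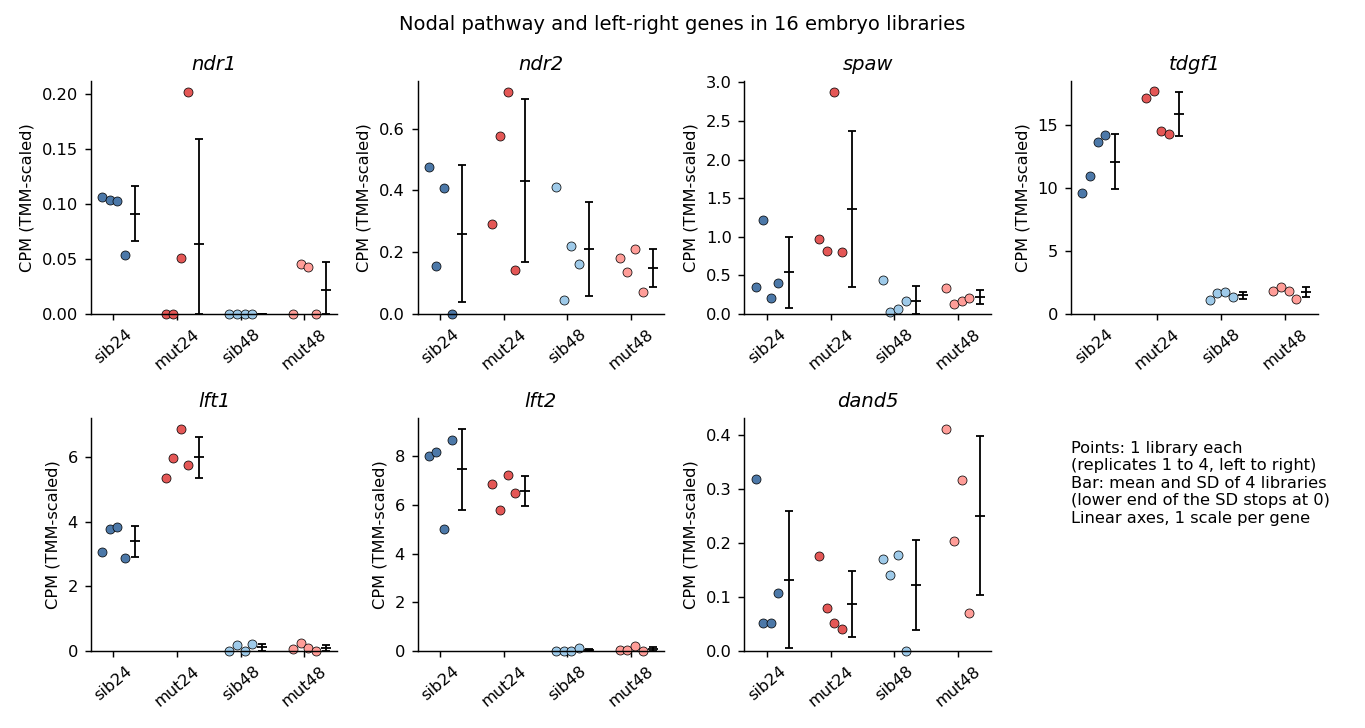
CPM of the 7 genes in each of the 16 libraries, 1 panel and 1 linear scale per gene, with the mean and SD of 4 libraries beside the points. For lft1 the mut24 points (5.35 to 6.88 CPM) all lie above the sib24 points (2.87 to 3.84 CPM), and lft1, lft2 and tdgf1 are far lower at 48 hpf in both genotypes.

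Among the ligands, spaw (southpaw) carries the left-sided signal in the lateral plate mesoderm. It had 13, 47, 8 and 15 reads in the sib24 libraries and 33, 31, 112 and 40 in mut24, in the order of replicates 1 to 4. These are 0.344, 1.22, 0.205 and 0.399 CPM against 0.965, 0.813, 2.87 and 0.806 CPM. WT replicates 1, 3 and 4 lay below every mutant library, but WT replicate 2 lay above mutant replicates 1, 2 and 4, so the groups overlapped. The mean was 0.541 ± 0.458 CPM (SD, n = 4) in sib24 and 1.36 ± 1.01 CPM in mut24, a log2 fold change of 1.33 (SE 0.664, edgeR adjusted p = 0.395). Leaving out single libraries moved it between 0.67 and 2.10.

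The ligand gene ndr2 (cyclops) is known in the ventral neural tube and, later, in the left dorsal diencephalon. It had 18, 6, 16 and 0 reads in sib24 and 10, 22, 28 and 7 in mut24, and the groups overlapped. The log2 fold change was 0.72 (SE 0.772, edgeR adjusted p = 0.751), from 0.26 ± 0.222 CPM to 0.432 ± 0.263 CPM. In a RefSeq gene table of another assembly, ndr2 lies on the chromosome of lipf, and the part of that linkage in its values was not tested. The third ligand gene, ndr1 (squint), acts mainly in the early embryo and was close to absent. It had 14 reads in all of sib24 and 12 in all of mut24, of which 10 lay in 1 mutant library. Without the filter its edgeR adjusted p was 0.962.

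tdgf1 encodes the co-receptor One-eyed pinhead, without which cells do not respond to Nodal ligands. Its level was 9.59, 10.9, 13.7 and 14.2 CPM in the sib24 libraries (362 to 534 reads) and 17.1, 17.7, 14.6 and 14.3 CPM in mut24 (567 to 707 reads). The lowest mutant library and the highest WT library were 14.25 and 14.21 CPM, so the gap between the groups was narrow. The means were 12.09 ± 2.21 and 15.9 ± 1.75 CPM (SD, n = 4), a log2 fold change of 0.39 (SE 0.176, unadjusted p = 0.038, edgeR adjusted p = 0.327). No alternative setting called it, with adjusted p from 0.244 to 0.647.

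The Lefty proteins are the feedback antagonists of the pathway, and lft1 marks the midline and the left dorsal diencephalon. It had 116, 146, 150 and 108 reads in sib24 and 183, 228, 268 and 286 in mut24. Per 1e6 counts these are 3.07, 3.78, 3.84 and 2.87 CPM in sib24 and 5.35, 5.98, 6.88 and 5.76 CPM in mut24. All 4 mutant libraries stood above all 4 WT libraries. The mean rise from 3.39 ± 0.49 to 5.99 ± 0.644 CPM was larger than the spread within either group, and the log2 fold change was 0.82 (SE 0.456). It was not called (edgeR adjusted p = 0.455), and the range over the other settings was 0.0489 to 0.777. The lowest of these came from a fit of the 24 hpf libraries alone, in which the spread was not shared with the 48 hpf libraries and lft1 was called. In DESeq2 the adjusted p was 0.0843.

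lft2 is known above all from the left heart field. Its 4 sib24 libraries held 302, 316, 196 and 326 reads, or 7.999, 8.19, 5.01 and 8.68 CPM. The mut24 libraries held 234, 220, 282 and 322 reads, or 6.85, 5.77, 7.24 and 6.49 CPM. The mutant values lay inside the range of the WT values. The log2 fold change was -0.18 (SE 0.369, edgeR adjusted p = 0.89), from 7.47 ± 1.66 to 6.59 ± 0.623 CPM, and it was 0.083 without the 4 yolk-poor libraries.

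The ratio of lft1 to lft2 reads within a library compares how the pair moved and is free of library scaling, though it is not a ratio of molecules because the lengths of the transcripts are not used. It was 0.384, 0.462, 0.765 and 0.331 in the sib24 libraries and 0.782, 1.04, 0.95 and 0.888 in mut24. The mutant libraries were the 4 highest, and sib24 replicate 3, with the fewest lft2 reads, came close to the lowest of them. The means were 0.486 ± 0.194 and 0.914 ± 0.107 (SD, n = 4). No test was made of this ratio, which was formed after the separate values of both genes were known. The ratio of lft1 to tdgf1 reads, 0.288 ± 0.063 in sib24 and 0.382 ± 0.0718 in mut24, overlapped between the groups.

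**Figure D2:**
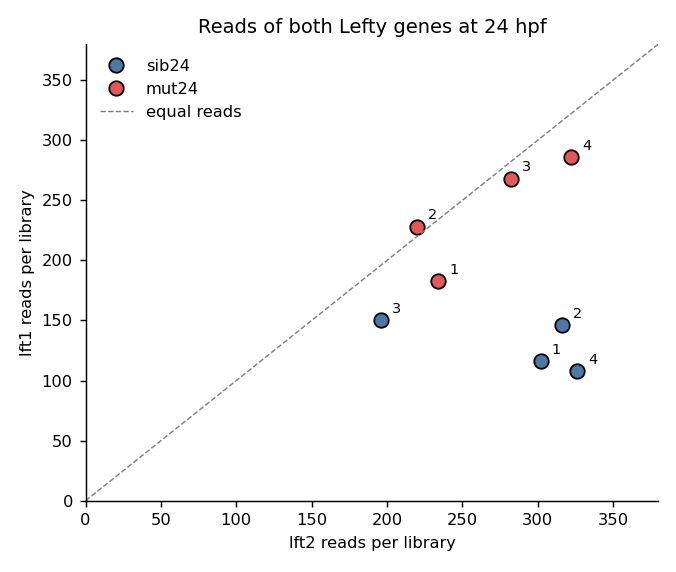
Reads of lft1 (vertical axis) against reads of lft2 (horizontal axis) in the 8 libraries at 24 hpf, numbered by replicate, with a dashed line of equal reads. The 4 mut24 points have ratios of 0.782 to 1.04, and the sib24 points all lie below the line, with ratios of 0.331 to 0.765. All 4 mut24 ratios exceed all 4 sib24 ratios.

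dand5 encodes Charon, which binds Nodal ligands around Kupffer's vesicle, the ciliated organ in which the left-right difference begins. It had 12, 2, 2 and 4 reads in sib24 and 6, 3, 2 and 2 in mut24, too few for the groups to be told apart (no-filter edgeR adjusted p = 0.85).

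Cell type markers at 24 hpf gave these values beside the results on lft1 and tdgf1. Of 4 epidermis genes, 3 were called higher in mutants (krt5, cyt1l and krtt1c19e), and the summed CPM of the list was 7771 to 13056 in sib24 and 14069 to 19159 in mut24. Without the yolk-poor libraries none of these was called, at log2 fold changes of 0.68, 0.53 and 0.51 (edgeR adjusted p = 0.0641, 0.213 and 0.272). Of 9 pineal and parapineal genes, which mark part of the dorsal diencephalon, bsx was called lower in mutants, at 2.54, 1.87, 2.53 and 1.86 CPM in sib24 and 0.79, 0.997, 1.13 and 0.887 CPM in mut24. Its groups did not overlap, and the log2 fold change was -1.21 (SE 0.19, adjusted p = 0.00756), or -1.20 (SE 0.286, adjusted p = 0.131) without the yolk-poor libraries and -1.20 (adjusted p = 0.0537) in the fit of the 24 hpf libraries alone. The summed level of that list was 32.3 ± 0.611 CPM in sib24 and 29.8 ± 2.54 CPM in mut24, and its median log2 fold change was -0.085. Sums of 10 heart genes (198 ± 13.7 against 203 ± 13.4 CPM), of 11 floor plate and notochord genes (1997 ± 88.6 against 1883 ± 270.5) and of 15 tailbud and segmentation genes (390.4 ± 36.2 against 379 ± 34.1) overlapped between the genotypes. In the tailbud list cyp26a1 alone was called, as higher, and wnt8a was at 0 in both groups at 24 hpf. Sums of 5 skeletal muscle genes (8025 ± 1492 against 6537 ± 396 CPM) and of 5 blood genes (1096 ± 149 against 896 ± 92.7) overlapped too. The same held for 4 neuronal genes (405 ± 14.7 against 377 ± 36.6). None of these was called, and the median log2 fold changes of the 3 lists were -0.43, -0.18 and -0.093. The part of the epidermal, bsx and other marker differences in the values of lft1 and tdgf1 was not tested.

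By 48 hpf, levels of lft1, lft2 and tdgf1 had fallen in both genotypes, and 12.25% of the 24 hpf level of tdgf1 was left in WT siblings and 11.2% in mutants. Of all tested genes 63.3% were called between the ages in WT siblings, 29.2% as lower at 48 hpf, and in mutants 30.4% were called lower. Groups did not overlap, with 48 hpf lower, for 27.2% of tested genes in WT siblings and 27.9% in mutants. lft1 and lft2 passed the filter only through their 24 hpf libraries, and ndr2 and spaw mostly so, and a count of these genes is therefore not read against those shares. tdgf1 exceeded the filter's cutoff of 0.251 CPM in all 16 libraries.

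For the co-receptor tdgf1, levels at 48 hpf were 1.11, 1.68, 1.77 and 1.35 CPM in WT siblings (46 to 80 reads) and 1.85, 2.18, 1.86 and 1.21 CPM in mutants (52 to 96 reads). The fall with age was -3.02 on the log2 scale in WT siblings (SE 0.197, edgeR adjusted p = 3.64e-10) and -3.16 in mutants (adjusted p = 1.63e-10), and every 48 hpf library lay below every 24 hpf library. Between the genotypes at 48 hpf the groups overlapped, at 1.48 ± 0.304 and 1.78 ± 0.405 CPM (log2 fold change 0.26, adjusted p = 0.494).

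The Lefty genes were nearly silent at 48 hpf. lft1 had 0, 8, 0 and 8 reads in sib48 and 2, 10, 4 and 0 in mut48, 16 in each group. lft2 had reads in 1 sib48 library, 4 in replicate 4, and 2, 2, 10 and 0 reads in mut48. In WT siblings the log2 change with age was -5.08 for lft1 (SE 0.627, edgeR adjusted p = 1.39e-06) and -8.09 for lft2 (SE 0.636, adjusted p = 4.17e-09), as the summed lft2 reads went from 1140 to 4. In mutants it was -6.02 for lft1 and -6.35 for lft2 (adjusted p = 1.67e-07 and 1.11e-08). Both genes entered the test only through their 24 hpf libraries, so these adjusted p-values are descriptive and the reads carry the comparison. Leaving out single libraries moved the size of the changes with age. Without sib48 replicate 4 the value for lft1 was -5.71, and the value for lft2, then with 0 reads at 48 hpf, was -11.27, which depends on the fit and is no bound. Without mut48 replicate 2 the change of lft1 in mutants was -6.98, and without mut48 replicate 3 that of lft2 was -7.61. Beside the fall of lft2, 6 of 10 heart genes were called lower and 3 higher at 48 than at 24 hpf in WT siblings. The part of the heart in the values of lft2 was not tested.

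**Figure D3:**
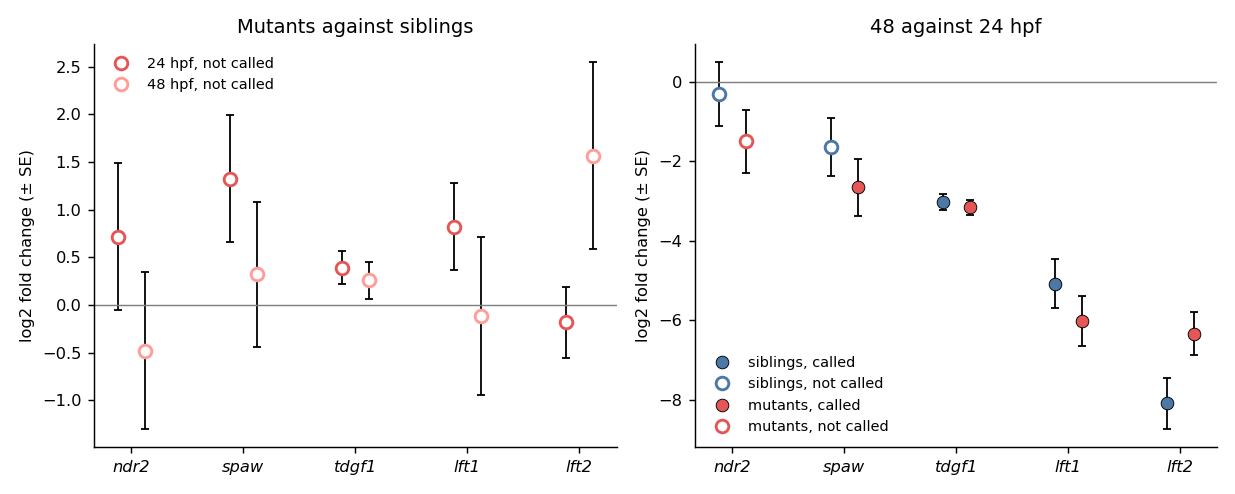
Log2 fold change with its standard error for the 5 tested genes, between genotypes at each age (left) and between ages in each genotype (right), filled where called. No genotype difference is called, and the falls of lft1, lft2 and tdgf1 with age are called in both genotypes, from -3.02 for tdgf1 to -8.09 for lft2 in WT siblings. lft1 and lft2 passed the filter only through their 24 hpf libraries. spaw and ndr2 passed it mostly so, and the call of the fall of spaw is descriptive.

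The ligand genes fell less or had too few reads. spaw had 18, 1, 3 and 6 reads in sib48 and 15, 6, 8 and 9 in mut48. Its fall with age was called in mutants (-2.65 on the log2 scale, SE 0.71, edgeR adjusted p = 0.00328, and -1.99 without mut24 replicate 3) and not in WT siblings (-1.65, SE 0.731, adjusted p = 0.058). The latter was called in DESeq2 (adjusted p = 0.0303), without the yolk-poor libraries (0.0486) and without sib24 replicate 3, mut24 replicate 3 or sib48 replicate 1. The difference between these falls was itself not called (interaction -1.01, adjusted p = 0.685). spaw passed the filter mostly through its 24 hpf libraries, so the calls of its falls with age are descriptive in every setting.

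ndr2 had 17, 2, 10 and 6 reads in sib48 and 8, 6, 10 and 3 in mut48, which overlapped the values at 24 hpf. Its change with age was -0.30 in WT siblings (edgeR adjusted p = 0.761) and -1.50 in mutants (adjusted p = 0.111). ndr1 had 0 reads in all 4 sib48 libraries against 14 in sib24 (no-filter edgeR adjusted p = 0.0207), and 4 reads in mut48. With a floor of 3 counts over the group in place of 0, ndr1 in sib48 was 5.05-fold lower than in sib24. That value is no bound if both reads of a fragment were counted. dand5 had 7, 6, 8 and 0 reads in sib48 and 18, 9, 15 and 3 in mut48, and was the member whose mutant level was higher at 48 than at 24 hpf, at 0.251 ± 0.148 against 0.0865 ± 0.0615 CPM (no-filter adjusted p = 0.153).

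Between the genotypes at 48 hpf none of the 5 tested genes was called, against 7.43% of all tested genes, and none at an unadjusted p under 0.05 or in DESeq2. The median log2 fold change was 0.26 over the 5 genes, the value of tdgf1, and -0.04 over all tested genes. Sums over groups of 16 and 16 reads for lft1 and of 4 and 14 for lft2 leave little to compare at this depth. Nor was an interaction of genotype and age called for any of the 5, against 1.00% of tested genes, with 0 at an unadjusted p under 0.05 and 0 in DESeq2. The interaction for lft1, -0.94 (SE 0.962), had the same size as its standard error. Of 10 heart genes 0 were called between genotypes at 48 hpf, and their summed CPM was 126 ± 21.6 in sib48 and 113 ± 23.9 in mut48. The lowest sums were 94.7 in sib48 replicate 2 and 79.5 in mut48 replicate 4. The same libraries had the lowest myl7 of their groups, 3.27 and 0.14 CPM. The part of this unevenness in the values of the members was not tested.

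Reads of the Lefty genes at 24 hpf were even numbers in 15 of 16 values (93.8%), against 60.6% of all gene values in the same range of 108 to 326 reads. Of the values above 0 of the other 5 members 68.6% were even, and of all gene values between 1 and 20 reads 73%. Whether a count includes both reads of a fragment is not stated in the sources used here. If it does, the number of fragments behind the low values is smaller than the number of reads. The floor of 3 counts covers counting error only.

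Around the 7 genes, 4 lists of related genes were followed: Nodal signalling components, Nodal target genes, left-right and ciliary genes, and genes of the asymmetric brain and heart. Of their 126 symbols 117 matched a gene of the file and 115 were tested. At 24 hpf 2 of the 115 were called, both lower in mutants and both signalling components, 1.74% against the 0.831% of all tested genes. The median log2 fold change of the lists was 0.03.

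furinb encodes a proprotein convertase of the family that cleaves TGF-beta ligand precursors. Its level was 12.1045, 9.90, 12.15 and 10.9 CPM in sib24 and 7.55, 6.35, 7.08 and 7.01 CPM in mut24, without overlap. The 1.61-fold fall (edgeR adjusted p = 0.00756) recurred at 48 hpf, from 17.1 ± 0.371 to 11.7 ± 1.51 CPM, 1.46-fold (adjusted p = 0.00594). furinb lies on the chromosome of pla2g15 in the RefSeq table, and the part of that linkage in its values was not tested. smad3b, a Smad that carries the signal to the nucleus, was 16.1, 14.4, 17.3 and 15.5 CPM in sib24 and 12.6, 12.3, 11.1 and 11.5 CPM in mut24, a 1.33-fold fall (adjusted p = 0.0119). At 48 hpf smad3b was 59.0 ± 1.14 and 59.2 ± 3.11 CPM, and its interaction of genotype and age was not called (edgeR adjusted p = 0.0532). Without the 4 yolk-poor libraries neither was called at 24 hpf, though the log2 fold changes stayed close, at -0.60 (SE 0.164, adjusted p = 0.182) for furinb and -0.43 (SE 0.114, adjusted p = 0.172) for smad3b, against -0.69 (SE 0.109) and -0.41 (SE 0.0717) with all libraries. In the fit of the 24 hpf libraries alone smad3b was at -0.41 and not called (adjusted p = 0.112). The related genes furina, smad2 and smad3a of the same list were not called at 24 hpf with all 16 libraries.

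None of the other lists held a called gene at 24 hpf in edgeR. Of 23 tested Nodal targets, 3 passed an unadjusted p of 0.05 and 0 passed in DESeq2. The smallest p belonged to mixl1, a homeobox gene of the early mesendoderm, at 3.81 ± 0.538 CPM in sib24 and 2.54 ± 0.319 CPM in mut24 (adjusted p = 0.162). Of 31 left-right and ciliary genes 3 passed unadjusted and 1 in DESeq2, and the smallest p belonged to ccdc40, needed for the assembly of motile cilia, at 6.54 ± 1.4 and 9.502 ± 1.13 CPM (adjusted p = 0.101). Of 28 brain and heart genes 1 passed unadjusted and 0 in DESeq2, and the smallest p was that of meis2b, 94.0 ± 7.6 and 105 ± 5.6 CPM (adjusted p = 0.276).

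At 48 hpf 9 of the 115 genes were called, 7 higher and 2 lower in mutants, or 7.83% against 7.43% of all tested genes. Among all tested genes 2.84% were called higher and 4.59% lower, a split of 691 to 1115 that turned to 819 to 746 under upper-quartile scaling. DESeq2 called 14 of the 115, and leaving out single libraries gave from 5 (without sib48 replicate 2) to 12. Of the 7 higher genes 5 were in the left-right and ciliary list, in which 31 genes were tested. They were the Notch pathway genes dla, dlc and notch1a, and rfx2 and foxj1a, which lost their calls in 7 and 17 of 24 alternatives. The lists were chosen with earlier results of these data known and no set test was run, so this count is not read as an enrichment. All 7 higher genes had their lowest mut48 value in the same library, replicate 4. There notch1a, at 171.8 CPM, lay inside the range of the sib48 libraries. Why these genes were lowest in that library was not tested.

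dla, a Delta ligand of Notch, was 150.5, 150.8, 157 and 149 CPM in sib48 and 227, 239.7, 218 and 191 CPM in mut48. All mutant libraries were higher, by 1.44-fold in the mean (edgeR adjusted p = 0.000222, log2 fold change 0.53 with SE 0.0687), and the call held in each of 24 alternatives. dlc, another Delta ligand, rose 1.26-fold, from 79.5 ± 3.96 to 99.9 ± 4.25 CPM (adjusted p = 0.00541), also in all 24. The receptor gene notch1a rose 1.24-fold, from 172 ± 5.64 to 213 ± 28.6 CPM (adjusted p = 0.0363), with overlapping groups, and lost its call in 8 of 24 alternatives. At 24 hpf dla and dlc had not been called, and for both the difference between the ages was: the interaction was 0.62 for dla (adjusted p = 0.00609) and 0.42 for dlc (adjusted p = 0.0372), the latter lost in 12 of 23 alternatives. Notch ligands act in neurogenesis and segmentation among other processes, and RNA of whole embryos or bodies does not tell the sites apart. In the tailbud and segmentation list, 11 of 14 tested genes were called lower and 2 higher at 48 than at 24 hpf in WT siblings. Beside the rises of dla, dlc and notch1a in mutants, the summed level of 14 genes of that list, without dlc, was 202 ± 9.14 CPM in sib48 and 227 ± 38.4 CPM in mut48. There cyp26a1 was called higher in mutants, and the median log2 fold change was 0.048 over the list with dlc. That of 4 neuronal genes was 1462 ± 75.8 and 1424 ± 114 CPM, with gap43 called lower. The part of these tissues in the values of dla, dlc and notch1a was not tested. mib1 and dld, which also belong to the Notch pathway, were not called (adjusted p = 0.177 and 0.0778).

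**Figure D4:**
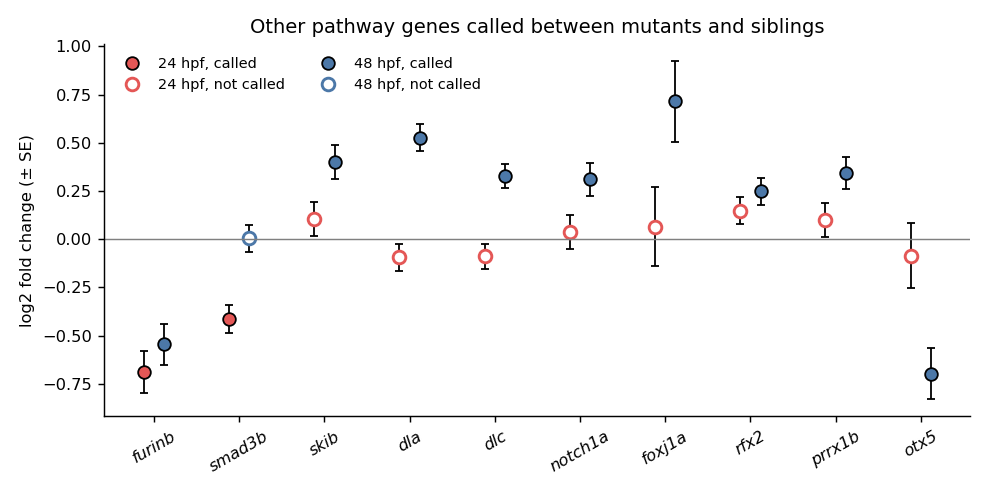
Log2 fold change with its standard error, mutants against WT siblings at 24 and 48 hpf, for the 10 other pathway genes called at either age, filled where called. furinb lies below 0 at both ages, smad3b is called lower at 24 hpf and not at 48 hpf, and dla, dlc and 5 further genes are called higher at 48 hpf. For smad3b the difference between the ages was itself not called.

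The remaining calls at 48 hpf were spread over the lists. rfx2, a regulator of ciliary genes, rose 1.19-fold (edgeR adjusted p = 0.0377) and lost its call in 7 of 24 alternatives. foxj1a, the regulator of motile cilia, rose 1.64-fold (adjusted p = 0.0465), lost its call in 17 of 24, and was named after its values were seen. Its mut48 libraries stood at 14.4, 15.0, 28.8 and 11.2 CPM, and without replicate 3 the adjusted p was 0.132. skib, a Ski family gene whose relatives repress Smad targets, rose 1.32-fold (adjusted p = 0.0104), and prrx1b, a homeobox gene of mesenchyme, rose 1.27-fold (adjusted p = 0.0204, lost without sib48 replicate 2 or mut48 replicate 2).

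otx5, a transcription factor gene taken here as a pineal marker, was 100.7, 98.9, 100.2 and 118 CPM in sib48 and 61.0, 50.5, 74.8 and 71.0 CPM in mut48. The groups did not overlap, and the 1.62-fold fall was called in all 24 alternatives (edgeR adjusted p = 0.00452). In the list of 9 pineal and parapineal markers crx was called too, also lower (adjusted p = 0.0173, lost without sib48 replicate 4 or mut48 replicate 2). Whether the falls of otx5 and crx lie in the pineal or at other sites cannot be told from RNA of whole embryos or bodies. The summed level of the other 8 markers, without otx5, was 135 to 169 CPM in sib48 and 92.2 to 121 CPM in mut48. Uncalled members lay on either side of 0, from -0.39 for aanat2 to 0.42 for tph1a, and the median log2 fold change of the 9 was -0.16. The habenula list of 7 genes, the asymmetric structure next to the pineal, had no call and stood at 218 ± 8.02 and 233 ± 26 CPM. Of that sum nrp1a alone held 141 of 208 CPM in sib48 replicate 2, where it was lowest in its group. In mut48 replicate 4, where nrp1a was highest in its group, it held 189 of 258 CPM. The median log2 fold change of the habenula list was 0.070. Of the 23 tested Nodal targets none was called at 48 hpf (2 at an unadjusted p under 0.05, 0 in DESeq2), and the smallest p was that of tbxta, at 16.1 ± 2.13 and 19.8 ± 3.03 CPM (adjusted p = 0.124).

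Between the ages in WT siblings 89 of the 115 genes were called, 37 higher and 52 lower, or 77.4% against 63.3% of all tested genes. Some of them passed the filter mostly through the age at which they are high, so this count is not read as an enrichment. The largest falls among called genes with at least 1 CPM were those of foxh1, the Nodal-responsive partner of Smad (1.28 ± 0.264 to 0.138 ± 0.142 CPM, log2 fold change -3.15), tbx16 (-3.06) and noto (-2.57), a T-box gene of the tailbud and a notochord gene. foxh1 lies on the chromosome of lipf in the RefSeq table. The largest rises were those of otx5 (5.54), of the organiser gene gsc (5.12), from 0.248 ± 0.138 to 8.70 ± 1.74 CPM, and of kctd8 (4.37), a gene of the habenula. foxh1 passed the filter mostly through its 24 hpf libraries and gsc mostly through its 48 hpf libraries, so the calls of both are descriptive. Changes in the lists thus went in both directions, and the median log2 fold change of the 115 genes was -0.17. The falls of lft1 (-5.08) and lft2 (-8.09) in WT siblings were larger than that of foxh1, and rest on few reads at 48 hpf.

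The genes whose profile over the 16 libraries was most like that of a member were found by the root mean square (RMS) difference of log2 CPM after centring each gene. Likeness was closest for tdgf1, with col5a3a (0.298), apela (0.299) and greb1 (0.314). apela, which encodes the Toddler peptide, fell from 15.4 CPM in sib24 to 2.04 CPM in sib48. For lft1 the nearest genes were tnni2b.1 (0.814), drl (0.88) and slc38a8b (0.902), and for lft2 cyp4t8 (0.782), he1.3 (0.917) and ednrab (0.937). The nearest to spaw were znf1050 (0.73), adh8a (0.771) and srpx2 (0.825), and those to ndr2 were tctex1d2 (0.653), cxcr3.1 (0.711) and tep1 (0.722). Profiles of the members other than tdgf1 rest on few reads at 48 hpf.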

How the data were processed

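Per the labels, RNA was extracted with TRIzol, and libraries were prepared with a VAHTS Universal V8 kit. The authors deposited whole-number read counts for 36109 genes in 16 libraries, not normalised or pooled. Per the submitters' processing notes, the tools were featureCounts 2.0.6, STAR 2.7.10b, FastQC 0.12.1 and Trim Galore 0.6.10, and the build was GRCz11. The sources used here do not give the annotation, the strand setting or the treatment of read pairs and of reads that map to several places. Values of close paralogs and of overlapping or antisense genes are therefore uncertain.

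Genes were filtered with filterByExpr, which removed 11809 and left 24300, scaled by TMM, and tested with edgeR 4.0.16 in R 4.3.3 (quasi-likelihood F-test, two-sided, 1 mean per group, all 16 libraries, Benjamini-Hochberg adjustment over all tested genes). ndr1 and dand5 were fitted without the filter. Values are mean ± SD of 4 libraries, and the SE of a log2 fold change is its size divided by the root of F. Alternatives were upper-quartile and RLE scaling, no filter, a stricter filter (1 CPM in 4 libraries), a fit of only the groups compared, a replicate block, DESeq2 1.42.0, leaving out each library, and leaving out the 4 yolk-poor libraries.

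The members, the lists, the markers and the yolk-poor libraries were chosen with earlier results of these data known. Named are all 7 members, each other pathway gene called between genotypes (up to 8 per comparison by p, or for a list without a call the smallest p), the 3 largest rises and falls with age, and the 3 genes most like each tested member (log2 CPM with a prior count of 2). Chromosomes come from a RefSeq table of assembly GRCz12tu, and no coordinates of it are used.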

Additional observations from a re-analysis of the deposited data

Results flagged for a closer look

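By Dixon's test at its 95% critical value a library stood apart from the rest of its group in 3 of 27 group values of the members and in 3 of 72 of the other named genes. Chance gives about 1 in 20 for continuous values. Many groups of the members hold only a few reads, so their number of flags is not read against that rate. Among the members, spaw was highest in mut24 replicate 3 at 2.87 CPM, lft2 was highest in sib48 replicate 4 at 0.108 CPM, the only library of that group with reads, and ndr1 was lowest in sib24 replicate 4 at 0.0532 CPM, from 2 reads against 4 in each of the others. Among the other named genes, skib was lowest in mut48 replicate 4 at 52.5 CPM, ccdc40 was highest in sib24 replicate 3 at 8.62 CPM, and otx5 was highest in sib48 replicate 4 at 118 CPM.

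An interaction of genotype and age was called for dla (0.62 on the log2 scale, edgeR adjusted p = 0.00609) and for dlc (0.42, adjusted p = 0.0372). That of dlc was lost in 12 of 23 alternatives. That of dla was lost in 0, with a highest edgeR adjusted p of 0.0461, without the yolk-poor libraries. At 48 hpf taken alone, both genes were higher in 4 of 4 mutant libraries than in every WT library.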

How the results depend on the processing

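The 25 log2 values of the tested members were computed under up to 24 alternatives, 579 values in all, of which 562 kept their direction and side of the threshold, 6 became called and 11 changed sign. With only the groups compared, 1 member (lft1) was called at 24 hpf, and 1 of the other pathway genes. Without the 4 yolk-poor libraries 0 of those were called at 24 hpf and lft2 changed sign to 0.083. At 48 hpf DESeq2 called 14 of them, and leaving out a library gave 5 to 12. Values that changed sign when a library was left out ranged from -1.08 to 0.51 for lft1, from -0.81 to 0.069 for ndr2 and from -0.043 to 1.36 for spaw (genotypes at 48 hpf), from -0.86 to 0.15 for ndr2 (ages in WT siblings), and from -1.78 to 0.035 for spaw and from -0.25 to 0.015 for tdgf1 (interaction). The cause of these changes of sign was not tested.

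Same-numbered libraries of both genotypes correlated at -0.201 to 0.338 at 24 hpf (2 of 4 over 0.1) and at -0.0775 to 0.026 at 48 hpf. At 24 hpf 2 of 4 mutant and 0 of 4 WT libraries correlated best with their own number, and at 48 hpf 0 of either. The sign of the correlations at 24 hpf followed the split into yolk-poor and other libraries. Whether same-numbered libraries shared a clutch was not tested. With a replicate block 0 members were called between genotypes at either age, and 2 and 6 of the other pathway genes.

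Over all tested genes, 202 calls at 24 hpf became 822 in DESeq2, 128 with only the groups compared, 23 without the yolk-poor libraries, and 62 (without sib24 replicate 1) to 462 (without sib24 replicate 3) leaving out a library. At 48 hpf 1806 became 836 to 1879 leaving out a library and 1193 with only the groups compared, and the interaction's 244 became 911 in DESeq2, 102 without the yolk-poor libraries, 97 with the replicate block and 83 to 339 leaving out a library.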
